A study of Mus musculus with 4 samples.

Results

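The 9 genes described here encode adhesion receptors of leukocytes and 1 of their ligands: the integrin α chains Itgam, Itgax, Itgal and Itga4, the β chains Itgb2 and Itgb1, the selectin ligand Selplg, the hyaluronan receptor Cd44 and the counter-receptor Vcam1. They were found by symbol, and all 9 were among the 32285 genes of the files. The study generated myeloid-derived suppressor cells (MDSCs), immature myeloid cells that restrain immune responses, from mouse bone marrow in vitro and profiled them by droplet single-cell RNA-seq. The libraries described here came from wild-type (WT) C57BL/6 mice, which per the methods were 6 to 10 weeks old. All cells received IL-6 and GM-CSF at 40 ng/mL each for 4 days. To 1 culture 10 µM isoproterenol (ISO), a synthetic catecholamine, was added daily from the start, and to the other PBS. This gave the libraries WT+PBS and WT+ISO, 1 per group. Every sample carries isoproterenol as treatment in the labels, and the groups were taken from the sample titles. How many mice stand behind a library was not given in the sources used here.

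Integrins are pairs of an α and a β chain that bind other cells or matrix once they are activated from inside the cell. Itgb2 pairs with Itgal to form LFA-1, with Itgam to form Mac-1 (CD11b/CD18) and with Itgax to form CD11c/CD18, while Itga4 pairs with Itgb1 to form VLA-4. PSGL-1, the product of Selplg, lets leukocytes roll on selectins, CD44 binds hyaluronan, and VCAM-1, which VLA-4 binds, is best known from activated endothelium and from stromal cells and macrophages of the bone marrow. Live CD11b+ cells were sorted before capture, so the protein of Itgam chose the cells, and its presence in the libraries is not a finding.

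After removal of cells with few genes or many mitochondrial UMIs, 2210 cells of WT+PBS and 2264 of WT+ISO were kept. They held 24393687 and 29400468 unique molecular identifiers (UMIs, counted mRNA molecules), with medians of 8088.5 and 10252 UMIs per cell. Levels are given as CPM, the UMIs of a gene per 1000000 UMIs of its library or cluster, with exact 95% Poisson intervals that cover counting error only. With 1 library per group, no difference between groups could be tested against replicate spread, and no p-value is given. UMIs are counted at transcript ends and CPM was not divided by length, so levels of different genes were not ranked against each other. Xist was at 387 and 360 CPM in WT+PBS and WT+ISO, and Ddx3y had 7 UMIs in each. Scrublet called 17 cells of the whole series doublets (0.183%), with the expected rate set to 6%. Whether the method missed doublets was not tested. Doublets were kept, and uncalled ones may remain. No barcode was shared between libraries (0 barcodes). The cultures were tagged and pooled before capture, so this may follow from how barcodes were assigned and is no check of mixing. The leading tag held 95.4% of tag counts in WT+PBS and 97.1% in WT+ISO.

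Gene positions are from RefSeq for GRCm38.p6 and were found for all 9 genes. Itgam (chr7:128062640-128118491) and Itgax (chr7:128129526-128150657) are neighbouring paralogs, separated by 11034 bases, and Itgal (chr7:127296139-127335137) lies on the same chromosome. Itgb2 is at chr10:77530329-77565708, Itga4 at chr2:79255426-79333114, Itgb1 at chr8:128685654-128733579, Selplg at chr5:113817798-113832528, Cd44 at chr2:102811141-102901669 and Vcam1 at chr3:116110020-116129688. Upstream windows of 250 bases before a start site were read from RefSeq promoters of that build, which matched 5 members: Itgam, Itgax, Itga4, Itgb1 and Cd44. The windows of 4 are printed, because Itgam and Itgax differ in their cell types although they are neighbours, and Itga4 and Cd44 have nearly opposite orders across clusters. They are chr7:128062390-128062639 and chr7:128129300-128129549 on the plus strand, chr2:79255176-79255425 on the plus strand and chr2:102901666-102901915 on the minus strand, each written in the direction of the gene. The last bases of the Itgax and Cd44 windows lie inside the genes as annotated. Capitals mark matches on either strand to GAGGAA (the core bound by PU.1 and related Ets factors), TGACG (the half-site of the cAMP response element) or GGGCGG (the GC box).
Itgam: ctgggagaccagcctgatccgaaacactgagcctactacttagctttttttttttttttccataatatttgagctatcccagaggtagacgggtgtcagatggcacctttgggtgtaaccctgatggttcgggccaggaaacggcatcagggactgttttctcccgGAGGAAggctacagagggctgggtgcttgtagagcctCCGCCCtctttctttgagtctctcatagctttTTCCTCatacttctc
Itgax: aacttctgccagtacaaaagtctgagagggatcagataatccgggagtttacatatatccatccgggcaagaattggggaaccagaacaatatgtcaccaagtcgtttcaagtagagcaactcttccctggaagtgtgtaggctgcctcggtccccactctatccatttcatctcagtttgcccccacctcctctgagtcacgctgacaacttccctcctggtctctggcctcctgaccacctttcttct
Itga4: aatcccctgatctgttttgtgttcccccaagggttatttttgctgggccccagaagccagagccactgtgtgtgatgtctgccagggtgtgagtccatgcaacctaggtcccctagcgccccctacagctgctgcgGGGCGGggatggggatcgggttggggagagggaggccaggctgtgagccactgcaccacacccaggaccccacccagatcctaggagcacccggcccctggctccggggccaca
Cd44: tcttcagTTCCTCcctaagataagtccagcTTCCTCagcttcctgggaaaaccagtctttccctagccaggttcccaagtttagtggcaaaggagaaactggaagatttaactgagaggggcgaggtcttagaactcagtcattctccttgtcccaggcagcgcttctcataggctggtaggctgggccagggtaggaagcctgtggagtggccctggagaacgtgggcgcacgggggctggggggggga
GAGGAA was matched at 2 places in the Itgam window, one of them close to the start, at 2 in that of Cd44 and at 1 in that of Itgb1, with 23.3% of all 32851 windows holding it. TGACG was matched in the Itgb1 window alone among the 5, against 17.8% of all windows. GGGCGG was matched once each in the windows of Itgam, Itga4 and Itgb1, against 32.7% of all windows. The Itgax window held none of the 3 motifs. These matches describe letters in these windows and show no binding.

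The cells formed 7 clusters, found without the 9 genes and the adhesion gene lists used below. Cluster 5 (328 WT cells) was azurophil-granule neutrophil progenitor-like, led by Mpo, Ctsg and Elane. Clusters 3 (627 cells, with Camp and Ngp) and 2 (989 cells, led by Ltf) were specific-granule neutrophil-like. Cluster 0 (1335 cells, led by Retnlg, with Mmp9) was mature neutrophil-like by the naming rule. At the finer clustering given below, most of its cells lay in a cluster led by Gpnmb and not by neutrophil markers. Cluster 1 (740 cells, with Mrc1 and C1qb) was macrophage-like and cluster 6 (53 cells, with Ccr7, Ccl22 and Fscn1) dendritic cell-like. Cluster 4 (402 cells, led by Kcnq5, Serpina3g and Muc13) stayed unnamed. Median UMIs per cell ran from 3479.5 in cluster 0 to 24023 in cluster 5 of WT+PBS. Names follow markers rather than an annotation by the authors, so they may differ from those of the study. Erythroid markers summed to 0.451 CPM in WT+PBS and were at 0 in WT+ISO, while stromal or endothelial markers summed to 1.02 and 0.850 CPM, with Col1a2 and Cxcl12 at 0 in both.

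Itgb2 and the α chains that pair with it were highest in clusters 0 and 2, and lowest in the progenitor-like, unnamed and dendritic cell-like clusters, except Itgax. Itgam was at 615 CPM in cluster 2 of WT+PBS and 579 in that of WT+ISO, and at 588 and 564 in cluster 0, so these clusters overlapped. It was at 395 and 363 in cluster 1, 273 and 259 in cluster 3, and 114 and 107 in cluster 4. With both libraries pooled it was lowest in the Mpo-led progenitor-like cluster 5, at 104 and 93.6 CPM, although every cell had passed a gate on its protein. In cluster 6 it was at 152 CPM in WT+PBS and 47.3 in WT+ISO, on 89 and 13 UMIs.
Itgb2, the shared β chain, was at 358 CPM in cluster 0 of WT+PBS and 312 in that of WT+ISO, then at 299 and 299.8 in cluster 2 and 206 and 202 in cluster 3. It was at 198 and 197 in cluster 1, 116 and 101 in cluster 4, 95.1 and 96.7 in cluster 5, and 61.4 and 69.1 in cluster 6. Clusters 3 and 1 lay within a few CPM of each other, as did clusters 4 and 5 in WT+ISO, and the other steps were larger.
Itgal, the α chain of LFA-1, had a narrower range. It was at 68.4 and 69.1 CPM in cluster 2, 60.8 and 54.5 in cluster 0, 56.2 and 53.3 in cluster 1, 43.0 and 44.6 in cluster 3, 37.4 and 30.9 in cluster 4, 24.0 and 26.3 in cluster 5, and 18.8 and 14.5 in cluster 6. Clusters 0 and 1 overlapped, and the other neighbours kept their order in both libraries.

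Itgax, the α chain of CD11c/CD18 and a common marker of dendritic cells and some macrophages, had a pattern of its own. It was at 76.8 CPM in the dendritic cell-like cluster 6 of WT+PBS and 124 in that of WT+ISO, at 70.6 and 46.7 in the macrophage-like cluster 1, and at 32.5 and 10.8 in cluster 0. In clusters 2, 3, 4 and 5 it was at 3.46 CPM or less in both libraries. Cluster 1 held 74.6% of the 1037 Itgax UMIs of the WT libraries against 23.8% of UMIs of all genes, and cluster 6 held 7.62% of them. Every cell was then thinned to 2000 UMIs. An Itgax UMI was found in 12.4% of the cluster 1 cells of WT+PBS and 9.90% of those of WT+ISO. In cluster 5, the lowest in Itgax with both libraries pooled, the shares were 0 and 0.505%. Medians before thinning were 15785 and 17874.5 UMIs in cluster 1, and 24023 and 25255 in cluster 5. Without thinning the shares were 44.4% and 39.8% in cluster 1, against 0.787% and 2.99% in cluster 5.
At a finer clustering (resolution 0.6), read after the first results were seen, cluster 1 split into a C1qb-led cluster of 299 WT cells and a Csta3-led cluster of 441. Itgax was at 148 CPM in the C1qb-led cluster of WT+PBS and at 19.4 CPM in the Csta3-led cluster of the same library. Cluster 0 went mainly into a Gpnmb-led cluster of 857 WT cells and a Retnlg-led cluster of 521. Over the 4 libraries 99.8% of the Gpnmb-led and 90.5% of the Retnlg-led cells lay in cluster 0. Itgax was at 43.5 CPM in the former and 7.33 CPM in the latter in WT+PBS. The Itgax UMIs of cluster 0 thus lay mostly in the Gpnmb-led cells, which were led by Gpnmb, Atp6v0d2 and Csf1 and not by neutrophil markers.

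Itga4 ran the other way. It was at 195 CPM in cluster 6 of WT+PBS and 189 in that of WT+ISO, at 35.0 and 42.3 in cluster 5, 26.0 and 24.9 in cluster 3, and 22.3 and 24.1 in cluster 4. It was at 20.4 and 13.5 in cluster 2, 14.1 and 13.7 in cluster 1, and 10.6 and 11.5 in cluster 0. Along the clusters named neutrophil-like the order of Itga4 was therefore progenitor-like first and cluster 0 last, with clusters 2 and 1 overlapping. At the finer clustering Itga4 was at 13.6 and 15.1 CPM in the Gpnmb-led cells, which made up most of cluster 0. In the Retnlg-led cells it was at 3.66 and 8.23 CPM, on 4 and 14 UMIs.
Itgb1, its β chain, was at 264 and 236 CPM in cluster 6, 114 and 116 in cluster 1, 113 and 85.6 in cluster 0, 81.3 and 83.7 in cluster 4, 64.9 and 67.9 in cluster 5, 49.6 and 37.1 in cluster 3, and 37.3 and 32.6 in cluster 2. The specific-granule neutrophil-like cells were lowest in Itgb1, and clusters 3 and 2 overlapped between libraries. At the finer clustering, Itgb1 was at 138 and 125 CPM in the Gpnmb-led cells and at 56.8 and 52.9 in the Retnlg-led cells.

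In CPM, Selplg and Cd44 were highest in cluster 0. A Selplg UMI was found in 59.6% of cluster 0 and 83.5% of cluster 5 cells of WT+PBS, and in 43.5% and 19.0% after thinning. For Cd44 the shares without thinning were 90.1% and 66.9%. Selplg was at 290.0 CPM in cluster 0 of WT+PBS and 316 in that of WT+ISO, 244 and 291 in cluster 6, 200.3 and 194 in cluster 2, and 193 and 181 in cluster 1. It was at 134 and 115 in cluster 4, 106 and 97.3 in cluster 3, and 86.6 and 83.9 in cluster 5. Clusters 0 and 6 overlapped, and clusters 2 and 1 were close.
Cd44 was at 871 and 663 CPM in cluster 0, 486 and 488 in cluster 1, 386 and 394 in cluster 2, and 190.2 and 181 in cluster 4. It was at 158 and 158 in cluster 3, 125 and 113 in cluster 6, and 63.0 and 70.2 in cluster 5. Every step of Cd44 was in the same order in both libraries. At the finer clustering, Cd44 was higher in the Gpnmb-led cells (909 and 727 CPM) than in the Retnlg-led cells (762 and 599 CPM). Selplg was higher in the Retnlg-led cells (387 and 377 CPM) than in the Gpnmb-led cells (242 and 244 CPM).
Most Vcam1 UMIs lay in early neutrophil-like cells. Cluster 5 held 72.5% of the 287 UMIs and cluster 3 held 21.3%. Its level was 25.0 CPM in cluster 5 of both libraries, 6.03 and 6.64 in cluster 3, and 2.26 and 0.349 in cluster 4. In the macrophage-like cluster 1 it had 1 UMI in all, and in cluster 6 none (0 UMIs). In cluster 5, 20.5% of WT+PBS cells and 25.4% of WT+ISO cells had a Vcam1 UMI, and 6.35% and 4.55% after thinning. In cluster 1 these shares were 0.224% and 0 before thinning and 0 in both after it. Vcam1 was 1 of the 10 leading genes of cluster 5, which was itself found without it.

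**Figure D1:**
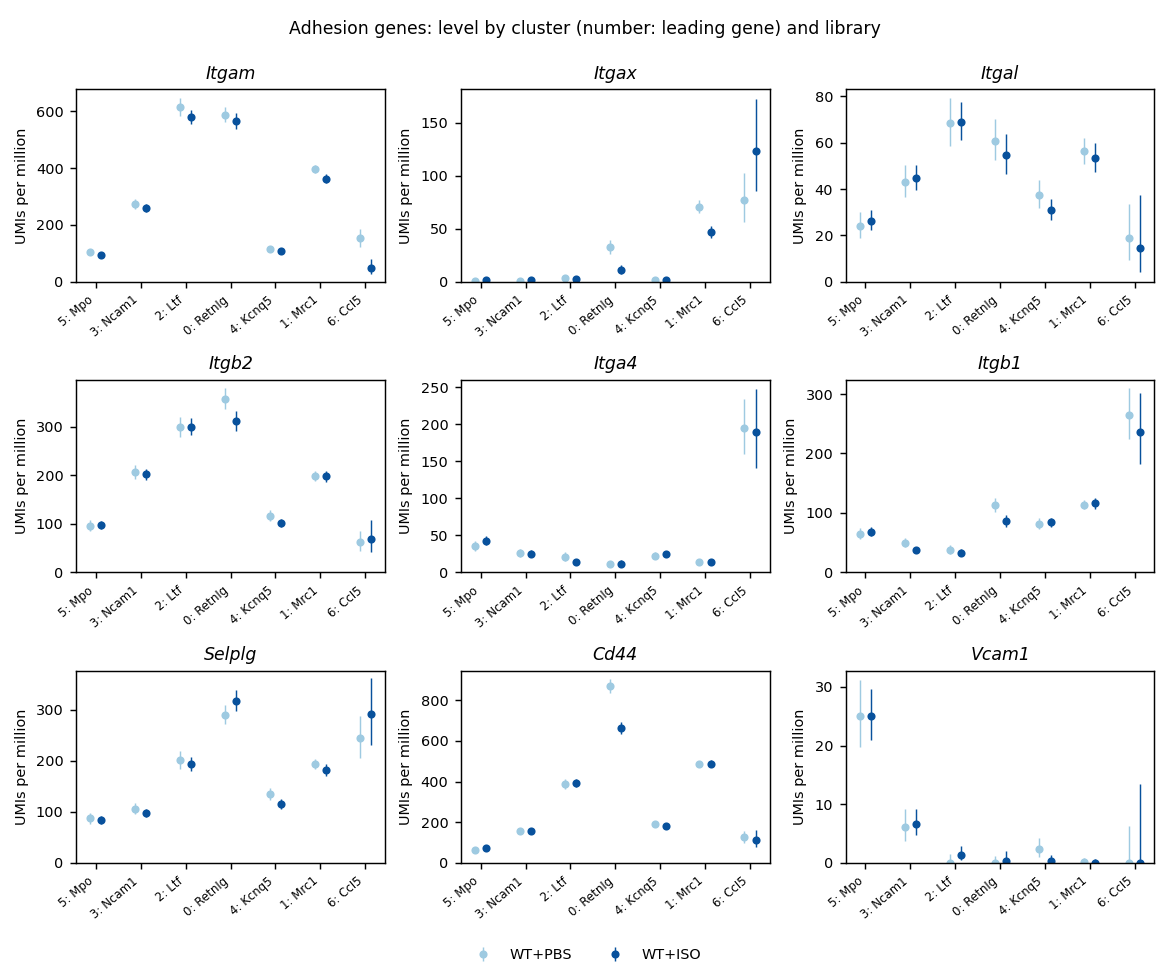
Level of each gene (y axis, CPM, from 0) in the 7 clusters (x axis, number and first leading gene, the 4 clusters named neutrophil-like on the left), 1 point per library with its exact 95% Poisson interval. Vcam1 is highest in cluster 5, Itga4 and Itgb1 in cluster 6, Itgax in clusters 6 and 1, and Cd44, Selplg and Itgb2 in cluster 0.

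The UMIs of an α chain per UMI of its β chain were compared between the libraries and clusters, as a description of relative counts and not of protein pairs. Itgal UMIs per Itgb2 UMI were 0.240 in WT+PBS and 0.239 in WT+ISO, nearly the same. Itgam UMIs per Itgb2 UMI were 1.68 and 1.56. Over clusters with both libraries pooled they ran from 1.01 in cluster 5 to 1.98 in cluster 2. In cluster 6 alone they were 2.47 in WT+PBS (89 and 36 UMIs) and 0.684 in WT+ISO (13 and 19 UMIs). Itgax per Itgb2 was 0.140 and 0.0646, lower in WT+ISO. Itga4 per Itgb1 was 0.277 and 0.339. By cluster, with both libraries pooled, it ran from 0.111 in cluster 0 to 0.755 in cluster 6. The paralog Itgad had 8 and 0 UMIs, and Itgb2l, a relative of Itgb2, was at 45.7 and 60.3 CPM. How reads shared by paralogs were assigned was not given in the sources used here.

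The comparison of WT+ISO with WT+PBS asks what ISO does to these genes. A gene was called when it had at least 50 UMIs in the pair and its log2 ratio of CPM reached 0.5 in size. Itgax was the 1 of 9 members called lower, and 0 of 9 were called higher. Among 11852 genes with enough UMIs, 8.31% were called lower and 2.67% higher, so the count of members called was near that of genes at large. At library level, fewer cells of a type and less RNA per cell cannot be told apart.
Itgax was at 28.1 CPM (26.0 to 30.3) in WT+PBS and 11.97 CPM (10.8 to 13.3) in WT+ISO. WT+ISO was thus the low library, with intervals that did not overlap. The 1% of cells with most Itgax UMIs held 26.3% of them in WT+PBS and 38.6% in WT+ISO. The intervals of Itgax do not cover this spread between cells. The log2 ratio of WT+ISO to WT+PBS was -1.23 (95% interval -1.42 to -1.04). After thinning to 2000 UMIs, 4.73% of WT+PBS (exact interval 3.85% to 5.75%) and 2.25% of WT+ISO cells (1.66% to 2.97%) had an Itgax UMI, against 14.1% and 7.95% without thinning. Thinning kept 2029 of 2210 and 2137 of 2264 cells.
Cell types that carry Itgax were fewer in WT+ISO. Cluster 1 made up 20.2% of WT+PBS cells and 12.99% of WT+ISO cells. Summed macrophage markers were at 143 CPM for WT+PBS beside 61.1 for WT+ISO. Dendritic cell markers were at 286 and 99.9 CPM, and all 6 macrophage and all 7 dendritic cell markers were detected in both libraries. Eosinophil markers were lower too (69.1 and 12.4 CPM, with Prg3 at 0 for WT+ISO), but were not shown to mark cells with Itgax. Their mean log2 ratio was above 0 only in cluster 4 (2.53). Itgax was at 1.51 and 1.74 CPM there, and the share of cells in cluster 4 was 7.65% and 10.3%. Clusters were then held at fixed weights, so that both libraries had the same cluster shares. Cluster 6, the highest in Itgax, had too few cells to be weighted and was left out. The log2 ratio of Itgax was then -0.86. The part of the marker lists in the rest was not tested.
Within clusters 1 and 0 Itgax was lower in WT+ISO too. The log2 ratio was -0.60 (-0.82 to -0.38) in cluster 1 and -1.59 (-2.22 to -0.99) in cluster 0, the latter on 101 and 31 UMIs. In the dendritic cell-like cluster 6 it was the higher value, 124 CPM, that came from WT+ISO, but its 34 UMIs lay in 6 of 16 cells, and the share of cluster 6 cells with an Itgax UMI was 37.5%, beside 40.5% for WT+PBS, so no direction was read from this cluster.
With the finer clusters at fixed weights the log2 ratio of Itgax was -0.61. In the C1qb-led cluster Itgax was at 148 CPM in WT+PBS and 104 in WT+ISO, a log2 ratio of -0.50 (-0.76 to -0.25). In the Gpnmb-led cluster it was at 43.5 and 19.6 CPM, a ratio of -1.15 (-1.84 to -0.51). In the Csta3-led cluster it was at 19.4 and 17.7 CPM, a ratio of -0.13 (-0.62 to 0.35), which did not differ beyond counting error. The C1qb-led cells made up 8.69% of WT+PBS and 4.73% of WT+ISO, and the Gpnmb-led cells 24.7% and 13.7%.

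**Figure D2:**
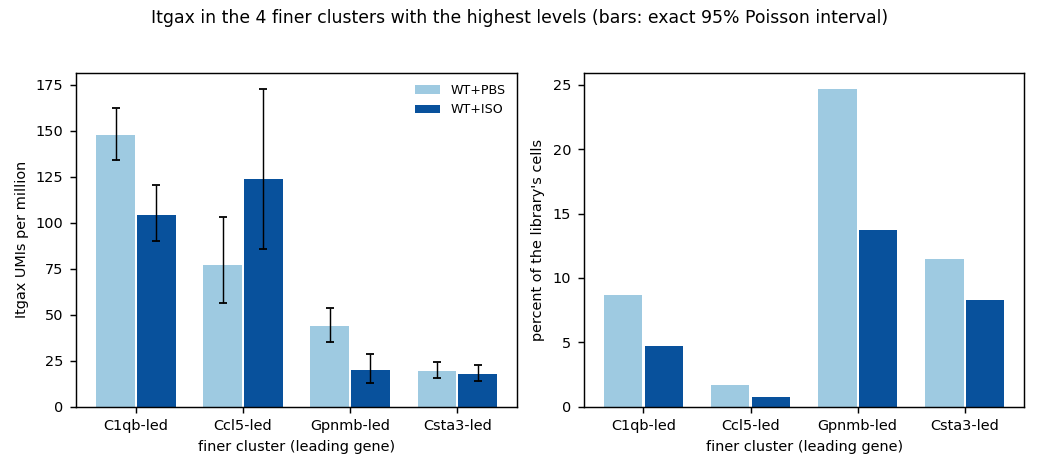
Itgax in the 4 finer clusters with the highest levels: CPM per library with exact 95% Poisson intervals (left) and percent of the library's cells in that cluster (right). WT+ISO is lower than WT+PBS in level in the C1qb-led and Gpnmb-led clusters (104 and 19.6 CPM) and lower in the share of these cells (4.73% and 13.7%).

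The other members differed less between the libraries. Cd44 was at 365 CPM in WT+PBS and 288 in WT+ISO. Its log2 ratio was -0.34 (-0.38 to -0.30), and -0.19 with clusters at fixed weights. Cluster 0 was the 1 cluster with an interval below 0 (-0.39, -0.48 to -0.31). In clusters 1, 2 and 3 the log2 ratios were 0.01, 0.03 and 0.00. Within cluster 1 Cd44 was higher in WT+ISO in the C1qb-led cells (0.14, 0.03 to 0.25). In the Csta3-led cells the interval included 0 (-0.02, -0.12 to 0.07).
Itgb1 was at 88.1 and 72.1 CPM, lower in WT+ISO, with a log2 ratio of -0.29 (-0.38 to -0.20), and -0.18 at fixed weights. It was lower in clusters 0 (-0.40) and 3 (-0.42), while the ratio in cluster 1 was 0.02. At the finer clustering the interval of Itgb1 included 0 in the Gpnmb-led cells (-0.14, -0.43 to 0.14) and in the Retnlg-led cells (-0.10, -0.58 to 0.39). In the Ncam1-led cells, which lay mostly in cluster 3, Itgb1 stayed lower in WT+ISO (-0.36, -0.65 to -0.07). The ratio was above 0 in the C1qb-led (0.18), Mpo-led (0.10) and Ltf-led cells (0.02), with intervals that included 0. With the finer clusters at fixed weights the ratio of Itgb1 was -0.05.
Itgam was at 336 and 290.0 CPM, with a log2 ratio of -0.21 (-0.26 to -0.17) and -0.08 at fixed weights. All 6 clusters with enough UMIs and at least 20 cells in each library were below 0, between -0.14 and -0.06. Only in cluster 1 did the interval exclude 0 (-0.21 to -0.04). Cluster 6, with 16 WT+ISO cells, was left out, at 152 CPM in WT+PBS and 47.3 in WT+ISO. At the finer clustering Itgam was at 0.00 (-0.19 to 0.19) in the Kcnq5-led and -0.03 (-0.14 to 0.09) in the Csta3-led cells. The interval lay below 0 in the C1qb-led (-0.27 to -0.02), Mpo-led (-0.45 to -0.06) and Ltf-led cells (-0.21 to -0.01). Itgb2 was at 201 and 185 CPM (-0.11, and -0.09 at fixed weights) and Itgal at 48.1 and 44.3 CPM (-0.12, and -0.07 at fixed weights). The interval of Itgb2 was below 0 in clusters 0 (-0.33 to -0.07) and 4 (-0.38 to -0.02) and above 0 in none.
Selplg was at 171 and 150.0 CPM, a log2 ratio of -0.19 (-0.25 to -0.13), which was 0.01 at fixed weights. At fixed weights of other clusterings it ran down to -0.09 (4000 variable genes), with -0.06 at the finer clustering, so how much of the difference was left with equal cluster shares depended on the clustering. In cluster 4 alone the interval of Selplg excluded 0 (-0.22, -0.39 to -0.06). Itga4 was at 24.4 and 24.5 CPM, with a log2 ratio of 0.00 (-0.16 to 0.16), which became -0.29 with cells thinned to 2000 UMIs. Cluster 2 was the 1 cluster whose interval did not include 0 (-0.59, -1.17 to -0.02).
Vcam1 was at 4.47 CPM in WT+PBS and 6.05 in WT+ISO, on 109 and 178 UMIs. WT+ISO was the high library, with a log2 ratio of 0.44 (0.09 to 0.80), and 0.17 at fixed weights. The 1% of cells with most Vcam1 UMIs held 80.7% of them in WT+PBS and 53.9% in WT+ISO. The interval does not cover this spread between cells. Within cluster 5, the main source of Vcam1, the level was 25.0 CPM in both libraries, and cluster 5 made up 5.75% of WT+PBS cells and 8.88% of WT+ISO cells.
The median log2 ratio of the 9 genes was -0.19, beside -0.02 over all genes.

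**Figure D3:**
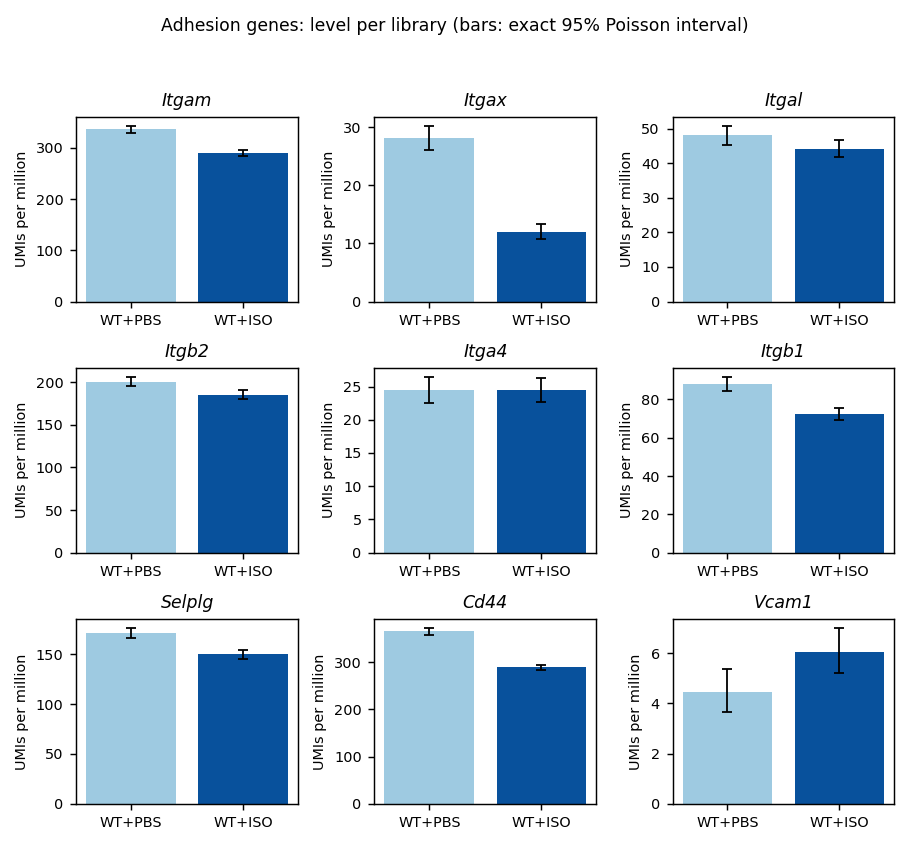
Level of each gene (y axis, CPM, from 0) in WT+PBS and WT+ISO, 1 bar per library with its exact 95% Poisson interval. WT+ISO is the lower library for 7 of the genes, all but Itga4 and Vcam1, and the higher for Vcam1 (6.05 CPM).

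**Figure D4:**
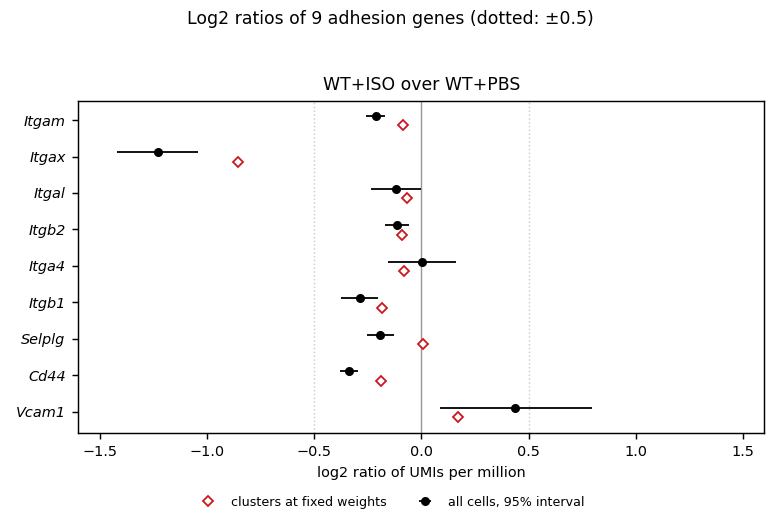
Log2 ratios of CPM of the 9 genes in WT+ISO over WT+PBS: filled circles are all cells with exact 95% counting intervals, open diamonds are clusters at fixed weights, and dotted lines mark a ratio of 0.5 in size. Itgax (-1.23, and -0.86 at fixed weights) is the 1 member beyond the dotted lines.

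Other adhesion genes were followed as 5 lists of 83 genes: other integrin subunits, selectins with the enzymes that make their ligands, adhesion molecules of the immunoglobulin family, proteins that activate integrins or link them to actin, and linkers and matrix ligands of CD44. Of these, 58 had at least 50 UMIs in the pair, of which 10 were lower in WT+ISO and 0 higher, beside 8.31% of all genes tested called lower and 2.67% higher. The lower ones were 4 of 8 other integrin subunits, 2 of 12 of the selectin list, 2 of 9 immunoglobulin-type molecules and 2 of 8 CD44 linkers and ligands. Of the 21 genes of integrin activation and linkage, 0 were called. The median over the 58 genes was -0.15.
Fn1, which encodes fibronectin, was at 150.0 CPM in WT+PBS and 45.6 in WT+ISO (log2 ratio -1.72, and -1.19 at fixed weights). Spp1, which encodes osteopontin, a ligand of CD44 and of integrins, was at 1347 and 564 CPM (-1.26, and -0.77). Transcripts of both were thus lower in WT+ISO also with the shares of the clusters at resolution 0.4 equal. St3gal6, a sialyltransferase used in making selectin ligands, was at 10.8 and 4.56 CPM (-1.25, and -0.84).
F11r, the junctional adhesion molecule JAM-A, was at 17.3 and 8.30 CPM (-1.06, and -0.73). Jaml, a related receptor that binds CAR on epithelium, was at 41.2 and 22.8 CPM (-0.85, and -0.48). Both belong to the wider JAM family. Among integrin subunits Itgb5 was at 23.2 and 14.3 CPM (-0.70, and -0.41), and Itga1, a collagen-binding α chain, at 104 and 64.9 CPM (-0.68, and -0.23).
Itgb7, the β chain that pairs with Itga4 or Itgae, was at 5.08 and 2.89 CPM (-0.81, and -0.14). Itgae was at 1.56 and 0.748 CPM on 38 and 22 UMIs (-1.06, and -0.79). Gcnt1, which branches the glycans that PSGL-1 needs, was at 46.0 and 32.5 CPM (-0.50, and -0.11). At fixed weights Itgb7, Itga1 and Gcnt1 were thus well short of 0.5, while the values of Fn1, St3gal6, Itgae, Spp1 and F11r were beyond it. These fixed-weight values have no interval and are given for the clustering at resolution 0.4 alone. Itgae was uncertain already over all cells, with an interval of -1.89 to -0.26.

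**Figure D5:**
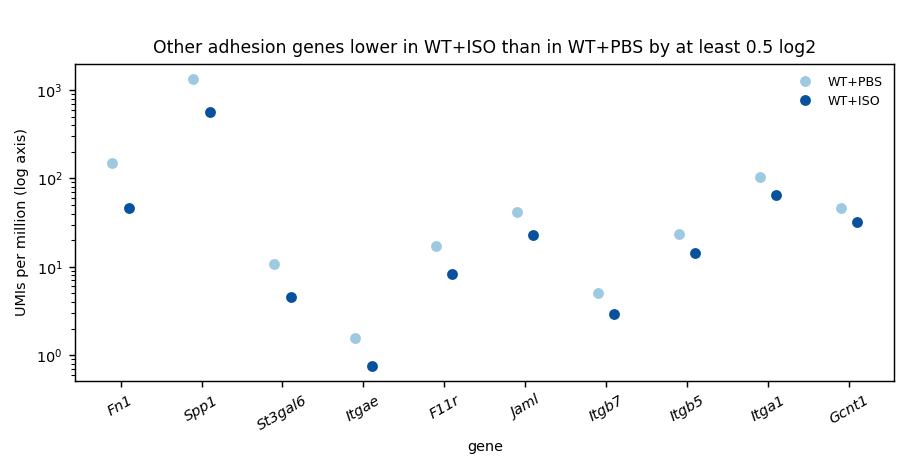
Levels (y axis, CPM on a log axis) of the 10 other adhesion genes called lower in WT+ISO than in WT+PBS, 1 point per library. WT+ISO is the lower library for each of them, from Fn1 (45.6 CPM) to Gcnt1 (32.5 CPM).

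For each member the genes with the most similar pattern were found by Pearson's r of log2(CPM + 1) over 24 sums, 6 clusters in the 4 libraries of the series, among 9230 genes. The 24 sums repeat 6 clusters in 4 libraries and are not independent, so r is a description. In the WT libraries Vcam1 had 1, 1 and 5 UMIs in clusters 0, 1 and 2. Itgax had 20, 9, 16 and 7 in clusters 2, 3, 4 and 5. Values of r for these genes thus rest mainly on their few other clusters. Itgam was most like Lyz2 (0.99), Plbd1 and Cd52, and Itgb2 like Timp2 (0.99), Myo1f and Kcnn3. Itgal was most like Nt5c2 (0.96), Zyx and Rapgef2, and Itgax like Rgs1 (0.98), Gm46401 and Myof. Itga4 was most like Sptssa (0.94), Paox and Nme6, and Itgb1 like Osbpl1a (0.96), Ass1 and Colgalt1. Selplg was most like Il1r2 (0.97), Exoc6b and Susd6, Cd44 like Lrp12 (0.99), Plek and Grk5, and Vcam1 like Nkg7 (0.94), Tmx4 and Nt5c3. Among the members themselves Itgam and Itgb2 had r = 0.97 and Itgam and Itgal 0.94, whereas Itga4 had -0.93 with both Cd44 and Selplg. Itgam and Itgax, the neighbours on chromosome 7, had 0.61. Itga4 and its partner Itgb1 had -0.29. Cluster 6, where both of these genes were highest, had too few cells and was left out of r.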

How the data were processed

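Live CD11b+ cells of 4 cultures were tagged, pooled and captured. The deposited values are raw UMI counts, 1 matrix of genes by cells per sample. The file header names Cell Ranger 7.0.0, and the submitters' processing notes name Cell Ranger 6.0.0, Seurat and mm10. All 4 libraries entered the filter, the clustering, the cluster weights and r, and the values of 2 of them are not reported here. The rule that assigned barcodes to samples was not given in the sources used here. Tags were left out of counts.

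Cells were dropped below 200 genes or above 10% mitochondrial UMIs. Clusters came from scanpy 1.11.5 (Leiden, resolution 0.4, 2000 variable genes, 30 principal components, 15 neighbours, seed 0). Naming a cluster took 3 or more markers of a class, each in 10% or more of its cells, whose log2 ratios averaged 1 or more, with 1 or more of them in the cluster's top 10 genes. Fixed weights are the mean cluster shares of the 4 libraries, over 6 clusters with at least 20 cells in each. This leaves out cluster 6. Log2 ratios have exact conditional binomial 95% intervals, and shares Clopper-Pearson intervals. The code was tested on simulated data. The members and lists were chosen with earlier results of these data known. List genes are named where called in WT+ISO over WT+PBS, similar genes are the 3 with the highest r and at least 500 UMIs.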

Additional observations from a re-analysis of the deposited data

How the results depend on the processing

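Of 81 log2 ratios recomputed with another cell filter, scaling, cell weight, depth, doublet treatment or cluster weight, 71 stayed close to the values given, 10 moved beyond counting error and 0 reversed a called value. Of 45 fixed-weight ratios under other clusterings, 32 stayed close, 13 moved and 0 reversed a called value. Itgax was the 1 member called, so few of these ratios could have reversed a called value. The count of 1 member called in WT+ISO over WT+PBS became 3 at a threshold of 0.3, with Cd44 (-0.34) lower and Vcam1 (0.44) higher. It became 2 without the 2% of cells with most UMIs, with equal weight per cell and with cells thinned to 2000 UMIs, Vcam1 being added at 0.53, 0.74 and 0.62. The share of all genes called under these other settings is not given here, so the counts are not read as a result about the members. The fixed-weight ratio of Itgax ran from -0.52 (4000 variable genes) to -0.88 (resolution 0.2). At fixed weights Itgb1 was at -0.05 (resolution 0.6), -0.07 (resolution 1.0), -0.09 (30 neighbours) and -0.08 (4000 variable genes), and Selplg at -0.06, -0.07, -0.08 and -0.09. The causes were not tested. No paired analysis was possible because there was 1 library per group.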
